A study of Mus musculus with 18 samples.

Results

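The hearts of mice given triiodothyronine (T3) after a diet with propylthiouracil (PTU) were compared between the genotype labelled Med13 cKO and wild type (WT). The members were the 6 RNA-seq libraries, of 18 in the series, whose labels give the treatment PTU+T3. They comprised 3 hearts labelled cKO and 3 labelled WT, called here hearts 1 to 3 of each label. All 18 hearts came from C57BL/6 mice aged 12 weeks. The PTU diet began at 8 weeks of age and ran for 4 weeks, after which T3 was injected once a day, 3 injections in all. Both genotypes received this same regimen. The cKO mice carried a deletion of Med13 that the labels describe only as specific to the heart. The sources used here name neither the Cre driver nor the deleted exons. Hearts of both genotypes kept on PTU alone or on normal chow, 3 per group, served to show where the T3 comparison differed.

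T3 is the active thyroid hormone. It enters the cardiomyocyte and binds the nuclear receptors encoded by Thra and Thrb, which sit on DNA with or without ligand. Without hormone the receptors hold corepressors, and with hormone they recruit coactivators and the Mediator complex, the bridge between DNA-bound factors and RNA polymerase II. PTU blocks hormone synthesis in the thyroid gland, so a PTU diet lowers the hormone supply of the heart and T3 injections restore it. Classical responses in the rodent ventricle are a switch from the slow myosin heavy chain Myh7 to the fast Myh6, more of the calcium pump Atp2a2 and less of its inhibitor phospholamban (Pln). Med13 belongs to the Mediator kinase module, together with Med12, cyclin C and the kinases Cdk8 or Cdk19. This module docks on core Mediator reversibly and modulates its contact with the polymerase. Cardiac Med13 is known from mouse work as a modulator of nuclear receptor programmes, thyroid hormone targets among them.

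The values were FPKM, transcript abundance scaled by the authors for transcript length and library size. Between 11762 and 12090 genes reached 1 FPKM in each of the 6 hearts. Absolute depth is unknown. From the steps between values of at most 0.3 FPKM, compared over 1356 to 1588 genes, the depth of the libraries was estimated to span a ratio of 1.47. The modal ratio used for this took in 19.9% to 23.2% of the genes. The cardiomyocyte markers, contractile and energy genes such as Tnnt2 and Myl2, were abundant in every heart, with summed levels of 88599 to 116422 FPKM in hearts labelled cKO and 69724 to 111179 FPKM in WT hearts. One WT heart stood apart from the rest. Across genes, which are no independent replicates, Pearson correlations of log2(FPKM + 1) between WT heart 2 and the other 5 hearts were 0.978 to 0.985. All other pairs were correlated at 0.986 to 0.993. WT heart 1 stood apart in a narrower set of immune genes. Results that rest on either heart are given with and without it. No label states that the libraries come from different animals, and p-values therefore reflect only the scatter among samples, some of it perhaps technical. That scatter was estimated per gene from all 18 libraries in 1 fit. Where the 6 compared hearts scatter more than the chow and PTU hearts, standard errors and p-values are too small for them.

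Med13 itself (chromosome 11, 86267033 to 86357596, GRCm38) had 6.82, 6.50 and 5.44 FPKM in hearts labelled cKO, against 6.29, 5.30 and 5.61 FPKM in WT hearts. The groups overlapped, and the hearts labelled cKO did not have less of the transcript. The log2 fold change, cKO over WT, was 0.11 with a 95% interval of -0.12 to 0.33 (limma adjusted p = 0.979). Gene-level FPKM takes in reads of every exon, so it need not show the loss of a few exons. The level therefore does not check the genotype labels, and every direction given below rests on those labels.

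The rest of the kinase module was close between the labels. Of the 7 genes of the module, 6 had estimates above 0 and 0 were called, with a median log2 fold change of 0.08 against 0.02 over all genes tested. Cdk8, one of the module's interchangeable kinases, had 10.8, 10.7 and 10.04 FPKM in hearts labelled cKO, against 8.88, 8.997 and 9.68 FPKM in WT hearts. The groups did not overlap, yet the log2 fold change of 0.18 (95% interval -0.01 to 0.36) was small. Its partner Ccnc, cyclin C, averaged 8.80 ± 0.631 FPKM in hearts labelled cKO and 7.89 ± 1.03 FPKM in WT hearts (SD, n = 3 each). Med13l, the paralogue of Med13, averaged 4.13 ± 0.358 FPKM in hearts labelled cKO and 4.55 ± 0.688 FPKM in WT hearts, with a log2 fold change of -0.11 (95% interval -0.32 to 0.10). Log2 fold changes of Med12 (0.06), Med12l (0.08) and Cdk19 (0.01) were smaller still, and that of Cdk19 changed sign when the libraries were scaled by median ratios. Of the 26 core Mediator genes, 2 higher and 1 lower had an unadjusted p under 0.05, against 3.45% of all genes, and 5 higher and 0 lower did without WT heart 3. Without WT heart 2 it was 1 higher and 0 lower. Med31, a subunit of the middle module, had 8.13, 7.86 and 8.70 FPKM in hearts labelled cKO and 6.85, 6.02 and 6.99 FPKM in WT hearts. Med21, which also lies in the middle module, had a log2 fold change of 0.24, and Med11, in the head module, one of -0.39.

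No gene passed the test. Of 12587 genes, 0 (0%) were called by limma at an adjusted p under 0.05, and the smallest adjusted p was 0.329. An unadjusted p under 0.05 was found for 434 genes (3.45%), 225 of them higher (1.79%) and 209 lower (1.66%) in hearts labelled cKO. The 3 hearts of one label lay wholly above the 3 of the other for 606 genes on the higher side (4.81%) and 469 genes on the lower side (3.73%). The median log2 fold change was 0.02 and the median standard error 0.12. For 96.2% of genes the 95% interval lay within 1 log2 unit of 0 and for 75.3% it lay within 0.5. For most genes tested, a difference of 1 unit on the log2(FPKM + 1) scale was therefore outside the interval, while many smaller differences could not be resolved. This scale understates folds of low genes, so for genes near 1 FPKM the interval can take in larger folds of FPKM. The authors' deposited table for the same 2 groups gave 121 genes with a q-value under 0.05 out of 12214 (0.991%), and these are taken up below. All values that follow come from genes that limma did not call.

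The hormone-responsive genes for which T3 is best known overlapped between the labels. Myh6, the fast myosin heavy chain, had 3310, 3743 and 3000 FPKM in hearts labelled cKO, against 3426, 2547 and 3100 FPKM in WT hearts. Without T3, on PTU, it had 148, 137 and 259 FPKM in hearts labelled cKO and 404, 208 and 106 FPKM in WT hearts. The gap between treatments was thus many times the gap between labels, whose log2 fold change on T3 was 0.15 (95% interval -0.63 to 0.93), and -0.0043 after quantile normalization. Myh7, the slow isoform, had 202, 239 and 188 FPKM in hearts labelled cKO, against 193, 166 and 224 FPKM in WT hearts. Hr, the corepressor Hairless and a direct receptor target, had 59.3, 58.2 and 55.9 FPKM in hearts labelled cKO, against 59.3, 48.7 and 51.4 FPKM in WT hearts. Its log2 fold change was 0.12 (95% interval -0.24 to 0.49). Hcn2, a pacemaker channel, averaged 26.5 ± 2.04 FPKM in hearts labelled cKO and 28.0 ± 7.91 FPKM in WT hearts (SD, n = 3 each). Ucp3, a mitochondrial uncoupling protein, averaged 51.5 ± 10.5 FPKM in hearts labelled cKO and 44.2 ± 17.03 FPKM in WT hearts, with WT heart 2 the lowest of the 6 at 24.8 FPKM.

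The receptor genes Thra and Thrb had small differences. Thra, the main cardiac receptor gene, had 20.8, 19.0 and 20.3 FPKM in hearts labelled cKO, against 20.2, 18.8 and 21.5 FPKM in WT hearts. Its log2 fold change of -0.01 had a 95% interval of -0.19 to 0.18, one of the narrowest here. Thrb averaged 10.1 ± 0.681 FPKM in hearts labelled cKO and 9.004 ± 0.672 FPKM in WT hearts (SD, n = 3 each). Among the other panel genes, log2 fold changes were 0.12 for Atp2a2, 0.17 for Pln, -0.22 for Myom2, an M-band protein, and 0.02 for Klf9, a transcription factor that thyroid hormone induces. Under quantile normalization those of Atp2a2 and Klf9 lay at -0.04 and -0.04. The widest intervals belonged to the atrial and stress peptides. Nppa, atrial natriuretic peptide, had 1449, 3313 and 507 FPKM in hearts labelled cKO, against 2497, 2960 and 3034 FPKM in WT hearts, and its 95% interval ran from -2.76 to 0.62. Nppb, the B-type peptide, had an interval of -1.63 to 1.11, and Acta1, skeletal actin, one of -1.61 to 1.08.

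**Figure D1:**
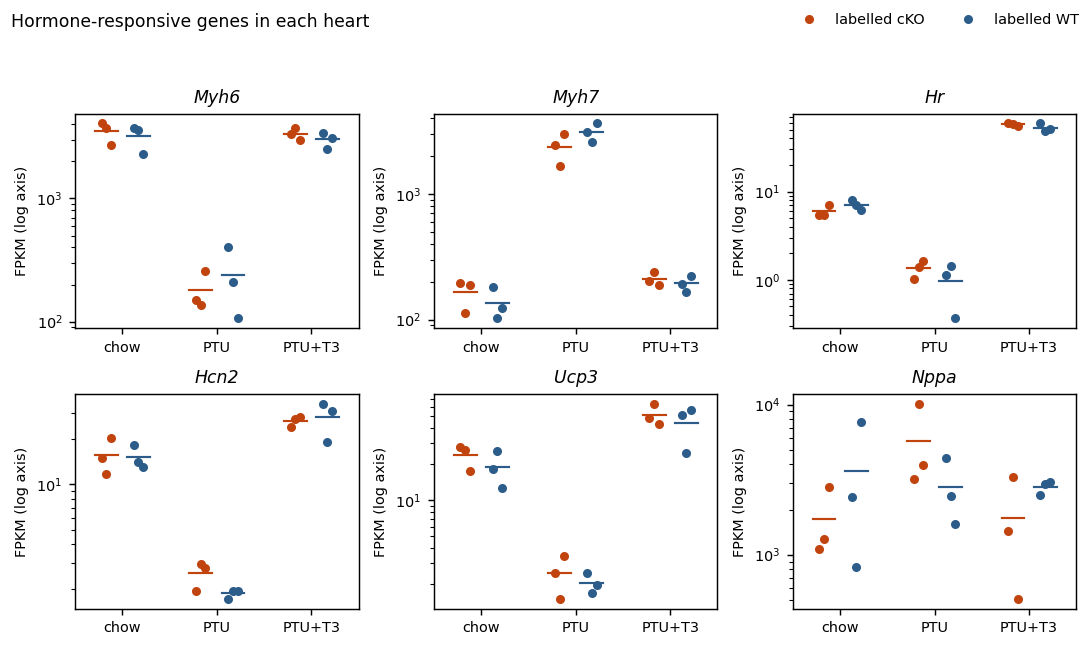
Each point is 1 heart, the y axis is FPKM on a log scale, the x axis is the treatment, and lines are means of 3 hearts labelled cKO (left of each pair) or WT (right). On PTU+T3, Myh6 lay between 3000 and 3743 FPKM in hearts labelled cKO and between 2547 and 3426 FPKM in WT hearts, and Nppa had its lowest heart, at 507 FPKM, under the cKO label.

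Over the whole list of 27 tested genes that thyroid hormone induces in heart, 21 had estimates above 0, the median log2 fold change was 0.09, and 3 had an unadjusted p under 0.05, 1 higher and 2 lower, against 3.45% of all genes. Without WT hearts 1 and 2 the median was -0.03, with 12 of 27 above 0. Thrsp, a hormone-inducible lipogenic protein, had 57.5, 63.8 and 86.3 FPKM in hearts labelled cKO and 77.0, 108 and 97.3 FPKM in WT hearts. Ucp2, another uncoupling protein, had 62.0, 82.4 and 87.1 FPKM in hearts labelled cKO, all below the 130, 135 and 105 FPKM of WT hearts. On PTU the order of Ucp2 was the opposite, with 45.5, 62.8 and 42.0 FPKM in hearts labelled cKO and 41.2, 31.7 and 20.7 FPKM in WT hearts. Adrb1, the main cardiac adrenergic receptor, had 9.40, 10.04 and 8.77 FPKM in hearts labelled cKO, all above the 8.28, 6.70 and 7.27 FPKM of WT hearts. For the 13 tested genes that the hormone represses, the median was 0.07 with 7 above 0. It was 0.0056 without WT heart 2, and -0.04 with 5 above 0 without WT hearts 1 and 2. The list's smallest p belonged to Gata4, the cardiac transcription factor, at 41.4, 41.5 and 38.7 FPKM in hearts labelled cKO, against 36.2, 33.2 and 33.9 FPKM in WT hearts. This is a small difference (log2 fold change 0.23, standard error 0.06) with little spread in either group.

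The genes with the smallest p among those lower in hearts labelled cKO were mostly those of MHC class I antigen presentation. Class I molecules display peptides from inside the cell. A heavy chain (H2-K1, H2-D1 and the Q and T genes in mouse) pairs with beta-2 microglobulin (B2m), while the Tap transporter and immunoproteasome subunits supply the peptides, and interferon raises the whole set. H2-K1 (chromosome 17, 33996012 to 34000619) had 74.6, 82.6 and 86.1 FPKM in hearts labelled cKO, against 270, 112 and 134 FPKM in WT hearts. The groups did not overlap, but WT heart 1 stood far above the other WT hearts. The log2 fold change was -0.97 with a standard error of 0.22 (limma adjusted p = 0.979). B2m (chromosome 2, 122147687 to 122153082) had 202, 229 and 261 FPKM in hearts labelled cKO, against 643, 325 and 346 FPKM in WT hearts, a log2 fold change of -0.86. Tap1, a subunit of the peptide transporter, had 2.85, 2.88 and 2.57 FPKM in hearts labelled cKO and 9.37, 5.01 and 4.72 FPKM in WT hearts. Nlrc5, the transactivator of class I genes, averaged 0.591 ± 0.148 FPKM in hearts labelled cKO and 2.24 ± 1.78 FPKM in WT hearts (SD, n = 3 each), with WT heart 1 at 4.30 FPKM.

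The regions upstream of 3 of these genes are shown because class I promoters are known to carry interferon-response sequences and the genes had like values across the hearts. Each run is the 250 bases before an annotated start site, read 5′ to 3′ on the gene's strand, from RefSeq on GRCm38.p6. H2-K1 has 2 annotated start sites, and the run shown belongs to 1 of them and lies inside the gene span given above. Capitals mark a match to GAAANNGAAA or GAANNGAAAC, 2 overlapping forms of the interferon-stimulated response element, searched on both strands.
B2m, chr2:122147437-122147686, plus strand: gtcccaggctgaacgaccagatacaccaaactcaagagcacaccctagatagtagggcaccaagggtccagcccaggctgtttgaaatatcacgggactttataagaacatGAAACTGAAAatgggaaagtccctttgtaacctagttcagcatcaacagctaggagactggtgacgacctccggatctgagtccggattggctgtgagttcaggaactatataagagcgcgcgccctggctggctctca
H2-K1, chr17:34000348-34000597, minus strand: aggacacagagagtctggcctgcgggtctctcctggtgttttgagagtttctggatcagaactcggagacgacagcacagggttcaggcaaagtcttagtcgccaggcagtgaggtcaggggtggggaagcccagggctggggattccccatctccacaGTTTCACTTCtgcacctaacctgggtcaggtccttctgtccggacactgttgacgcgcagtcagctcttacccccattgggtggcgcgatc
H2-D1, chr17:35262844-35263093, plus strand: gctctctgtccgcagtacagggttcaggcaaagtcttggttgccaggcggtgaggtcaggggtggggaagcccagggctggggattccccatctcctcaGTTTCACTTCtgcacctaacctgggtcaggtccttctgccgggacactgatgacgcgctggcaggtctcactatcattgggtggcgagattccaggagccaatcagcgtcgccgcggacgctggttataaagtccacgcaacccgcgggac
The match in B2m begins 139 bases before the start site on the gene's own strand. Those in H2-K1 and H2-D1 begin 91 and 151 bases before the start sites used and lie on the other strand. The distance for H2-K1 depends on which of its 2 start sites is taken. Of the 21 genes on the class I list, 15 had a promoter in the table and 9 of these held a match to either form. Those 9 were B2m and H2 genes, the 3 shown among them. H2-K1, H2-D1, H2-Q4, H2-Q6 and H2-Q7 share closely similar bases around the match, so their matches are not separate observations. Tap1, Tapbp, Psmb8, Psmb9, Psmb10 and Erap1 held no match. Over all 32851 promoters in the table, 2.98% held GAAANNGAAA, 1.45% held GAANNGAAAC and 4.28% held either. A match describes letters only, and binding was not measured.

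All 21 genes of the class I list were tested, and 20 had estimates below 0, with a median log2 fold change of -0.63. Of these genes, 14 had an unadjusted p under 0.05 on the lower side, where 1.66% of all genes did, and 10 lay wholly below WT, where 3.73% of all genes did. The list was put together after values had been seen, so these are descriptions. WT heart 1 was the highest of the 6 hearts for 19 of the 21 genes, so these are not 21 separate observations. The mean centred level of the list had an SD of 0.39 among WT hearts and 0.07 among hearts labelled cKO. The p-values use a spread from all 18 libraries, chow and PTU hearts included, and so do not measure the scatter of these WT hearts alone. Without WT heart 1 the median was -0.44 and 8 genes had an unadjusted p under 0.05. Without WT hearts 1 and 2, which leaves WT heart 3 as the only WT heart, the median was -0.54 and all 21 estimates lay below 0. The log2 fold changes of H2-K1, B2m and H2-D1 were then -0.72, -0.59 and -0.54. The H2 genes are near-identical copies of one another, so reads may have been split among them. H2-Q9 had 0.389, 0.735 and 1.12 FPKM in hearts labelled cKO and 8.50, 2.61 and 4.30 FPKM in WT hearts, and H2-Q4 had a log2 fold change of -0.72. These values, and those of the other H2 genes on the list, are uncertain for that reason.

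The wider interferon list gave the same picture in a milder form. Of its 35 tested genes, 6 of which are also on the class I list, 34 had estimates below 0, 16 had an unadjusted p under 0.05 and 10 did not overlap, all on the lower side, with a median of -0.45. Over all genes these shares were 1.66% and 3.73% on that side. The highest heart was WT heart 1 for 28 of the 35. Without that heart the median was -0.24 and 6 genes had an unadjusted p under 0.05. Igtp, an interferon-induced GTPase, had 8.47, 10.7 and 10.4 FPKM in hearts labelled cKO, against 63.2, 9.10 and 12.0 FPKM in WT hearts, so that 1 heart made the difference between the means. For Irf7, a transcription factor of the interferon pathway, the log2 fold change was -0.59. Isg15, a ubiquitin-like protein and a classical type I interferon target, averaged 6.74 ± 2.41 FPKM in hearts labelled cKO and 8.75 ± 0.848 FPKM in WT hearts (SD, n = 3 each), a gap within the spread.

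**Figure D2:**
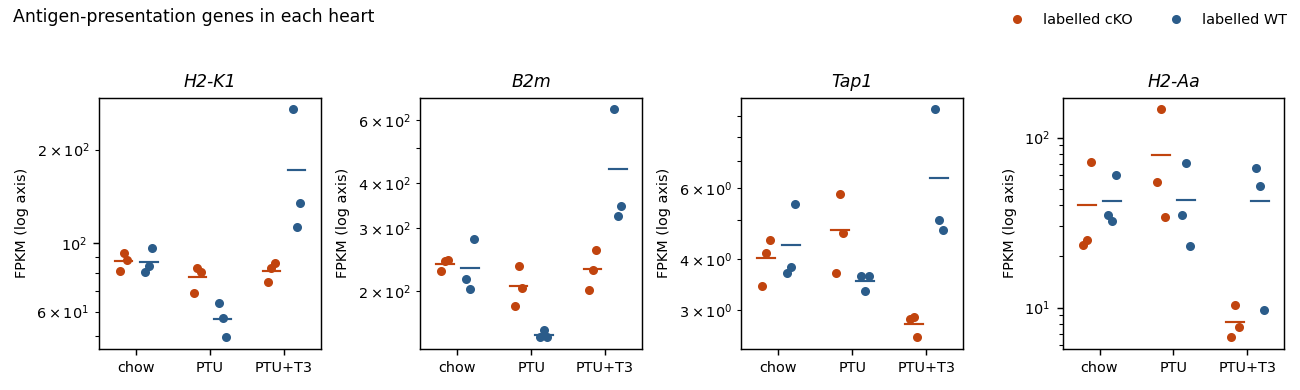
Each point is 1 heart, the y axis is FPKM on a log scale, the x axis is the treatment, and lines are means of 3 hearts labelled cKO (left of each pair) or WT (right). On PTU+T3, H2-K1 lay at 74.6 to 86.1 FPKM in hearts labelled cKO and at 112 to 270 FPKM in WT hearts. H2-Aa was higher in 2 of the 3 WT hearts, at 66.0 and 51.9 FPKM, than in the other PTU+T3 hearts.

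MHC class II genes, which antigen-presenting cells use to display outside peptides, followed a different heart pattern. H2-Aa had 6.67, 10.4 and 7.66 FPKM in hearts labelled cKO, against 66.0, 51.9 and 9.71 FPKM in WT hearts. WT hearts 1 and 2 lay above the other PTU+T3 hearts, and WT heart 3 stood within the range of the hearts labelled cKO. Cd74, the class II chaperone, had 14.0, 19.7 and 18.6 FPKM in hearts labelled cKO, against 125, 76.0 and 17.8 FPKM in WT hearts. Over the 6 tested class II genes the median log2 fold change was -1.499 with all WT hearts and 0.01 without WT hearts 1 and 2. With all hearts, 3 of the 6 had an unadjusted limma p under 0.05 on the lower side, where 1.66% of all genes did. In the contrast of PTU+T3 with PTU 5 of the 6 had one, against 821 of all 12587 genes. The list was put together after values had been seen, and its genes vary together. On PTU and chow both labels had class II levels of the order of WT hearts 1 and 2. H2-Aa lay there at 34.3 to 147 FPKM and 23.4 to 71.6 FPKM in hearts labelled cKO and at 22.9 to 71.1 FPKM and 32.2 to 60.4 FPKM in WT hearts. For H2-Aa it was thus the hearts labelled cKO and WT heart 3 on PTU+T3 that lay outside this range, below it. The macrophage list, at 736 to 878 FPKM in sum in hearts labelled cKO and 749 to 1196 FPKM in WT hearts, was highest in WT heart 2 and its part in the class II values was not tested. In bulk tissue, fewer cells of a type and less RNA per cell cannot be told apart.

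Matrix and wound-type genes set WT heart 2 apart from all other hearts. Postn, periostin, a matricellular protein of activated fibroblasts, had 38.6, 13.2 and 15.7 FPKM in hearts labelled cKO, against 13.9, 336 and 23.97 FPKM in WT hearts. Tnc, tenascin C, had 1.10, 0.192 and 0.389 FPKM in hearts labelled cKO, against 0.538, 17.6 and 0.475 FPKM in WT hearts. Cthrc1, a secreted protein of activated fibroblasts, had 2.55, 0.0967 and 0.220 FPKM in hearts labelled cKO, against 0.304, 29.5 and 0.225 FPKM in WT hearts. In each case 1 heart carried the WT mean and the other 2 lay among the hearts labelled cKO. The stress gene Sprr1a had 4.88, 0.312 and 0.177 FPKM in hearts labelled cKO and 0.123, 48.8 and 0.01 FPKM in WT hearts, where 0.01 is the table's floor. Timp1, an inhibitor of matrix proteases, averaged 11.8 ± 3.61 FPKM in hearts labelled cKO and 37.1 ± 41.4 FPKM in WT hearts (SD, n = 3 each). Col1a1, a chain of type I collagen, averaged 30.7 ± 13.4 FPKM in hearts labelled cKO and 71.0 ± 74.2 FPKM in WT hearts. Ctgf, a matricellular growth factor gene, did not overlap, with 37.8, 29.9 and 25.5 FPKM in hearts labelled cKO and 38.1, 144 and 41.9 FPKM in WT hearts.

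Of the 45 fibroblast and matrix genes, all had estimates below 0, with a median of -0.37, and 0 had an unadjusted p under 0.05. WT heart 2 was the highest heart for 43 of the 45. Without it the median was 0.04, with 29 of 45 above 0. The 16 wound-type genes, a list put together after values had been seen, had their highest value in WT heart 2 for all 16, with a median of -0.84 and of 0.13 without that heart. The same heart had the highest sums of the epicardial markers, at 25.7 FPKM against 5.97 to 10.3 FPKM in the other 5 hearts, and of the macrophage markers. Smooth muscle and pericyte markers were also highest there in sum, at 1952 FPKM against 1369 to 1529 FPKM. After centring each gene, the adipocyte list (1.44) and the stress and hypertrophy list (0.86) had their highest mean log2 level in WT heart 2. Its adipocyte sum of 1234 FPKM was not the highest. WT heart 2 had the lowest sum of cardiomyocyte markers. The part of these cells in the matrix values was not tested. Single PTU and chow hearts also had high values, with Postn at 411 FPKM in 1 heart labelled cKO on PTU, 138 FPKM in 1 WT heart on PTU and 114 FPKM in 1 WT heart on chow.

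**Figure D3:**
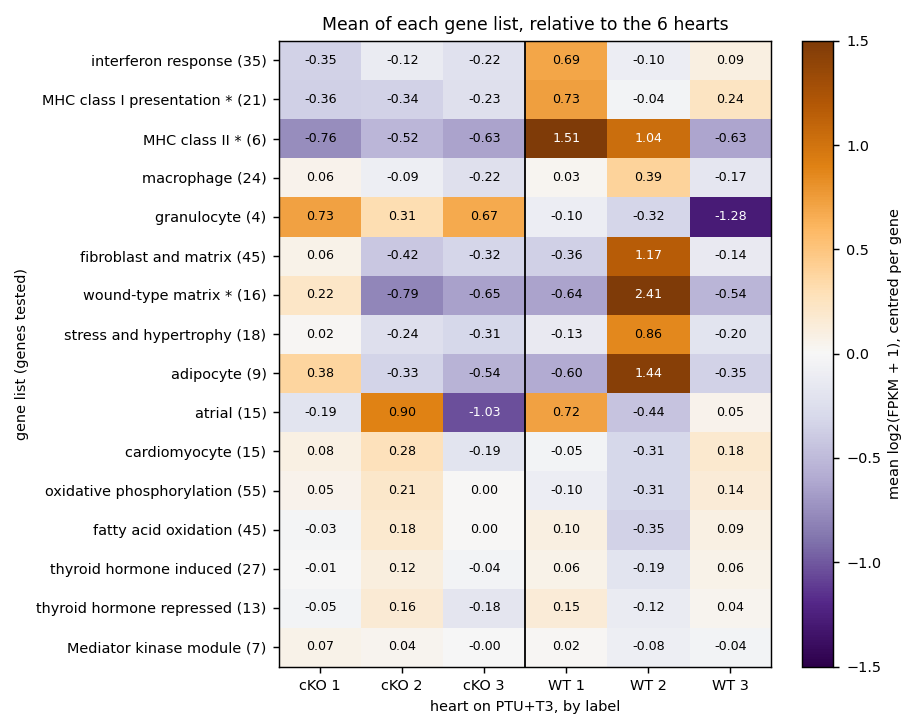
Each cell is the mean over a gene list of log2(FPKM + 1) in 1 heart after centring each gene on the 6 PTU+T3 hearts, with hearts labelled cKO on the left and WT on the right. Colours stop at 1.5 in either direction, asterisks mark lists put together after values had been seen, and WT heart 2 has 2.41 for wound-type matrix while WT heart 1 has 0.73 for class I presentation.

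These 2 WT hearts bear on the authors' own comparison. Of the 121 genes in the authors' deposited table, 102 were lower and 19 higher in cKO by the authors' group values. Of these, 116 were among the genes tested here, 36 had an unadjusted p under 0.05, as 3.45% of all genes did. Of the 116, 9 on the higher and 22 on the lower side did not overlap, against 4.81% and 3.73% of all genes. The authors selected these genes on the same libraries, so their counts are no independent evidence. Of the 98 tested genes on the lower side, the highest heart was WT heart 2 for 67, WT heart 1 for 25 and WT heart 3 for 6. All 20 of these 98 that are on the matrix list had their highest value in WT heart 2. All 13 on the interferon list had it in WT heart 1. A further 58 of the 98 were on none of the matrix, interferon, class I and class II lists. The median log2 fold change of the 98 was -0.66 with all hearts and -0.25 without WT heart 2, where 66 of the 98 remained below 0. The smallest q-value of the authors' deposited table, 0.00736, was shared by 83 genes. Ordered by fold, the first 10 of them included Ptprn2, Gm4841, Jchain, Tnc, Cthrc1, F830016B08Rik, Sprr1a, Postn and H2-Aa.

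Several of those 10 rest on a single heart. Ptprn2, a receptor-type phosphatase family member of secretory vesicles, had 0.101, 0.0211 and 0.0717 FPKM in hearts labelled cKO, against 0.0330, 0.0204 and 5.84 FPKM in WT hearts. Jchain, the joining chain of secreted antibodies and a plasma cell product, had 14.2 FPKM in WT heart 2 and at most 0.343 FPKM in the other 5 hearts. It fell under the filter on low values, as did Gm4841. F830016B08Rik had 1.26, 1.95 and 1.18 FPKM in hearts labelled cKO, against 37.4, 1.18 and 1.83 FPKM in WT hearts, and Gm4841 had 10.3 FPKM in WT heart 1 and at most 0.413 FPKM elsewhere. For Eno1b, an enolase gene, the sources disagree in direction. The authors' deposited table gives group values of 31.1 FPKM in cKO and 13.7 FPKM in WT, whereas the table of single libraries gives 35.1 ± 11.5 FPKM in hearts labelled cKO and 38.4 ± 15.6 FPKM in WT hearts (SD, n = 3 each).

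**Figure D4:**
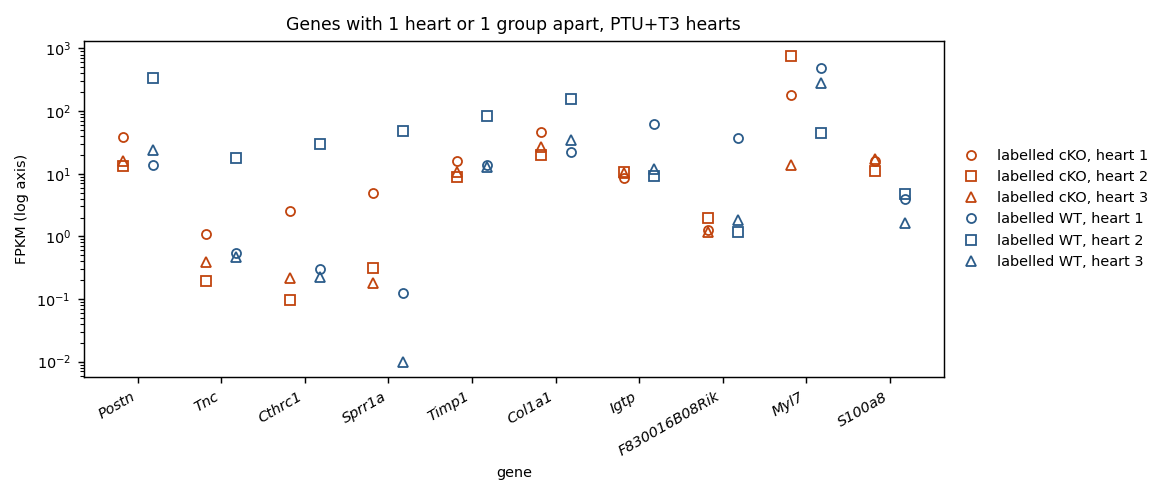
Each symbol is 1 heart on PTU+T3 and the y axis is FPKM on a log scale, with hearts labelled cKO to the left and WT to the right for each gene on the x axis. WT heart 2 (squares) is the highest for Postn at 336 FPKM and for Tnc at 17.6 FPKM, WT heart 1 (circles) for Igtp at 63.2 FPKM, and S100a8 is above 11 FPKM in all hearts labelled cKO and below 5 FPKM in all WT hearts.

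On the higher side, the smallest p of all genes belonged to Xrcc2 (chromosome 5, 25689814 to 25705797), which acts in repair of DNA breaks by homologous recombination. It had 7.87, 6.33 and 7.11 FPKM in hearts labelled cKO, against 3.04, 3.43 and 4.38 FPKM in WT hearts. The log2 fold change was 0.82 with a 95% interval of 0.52 to 1.12 (limma adjusted p = 0.329), and 0.59 without WT hearts 1 and 2. On PTU, Xrcc2 had 1.61, 1.43 and 1.64 FPKM in hearts labelled cKO and 1.499, 1.75 and 1.82 FPKM in WT hearts. On chow it had 3.73, 2.30 and 2.28 FPKM in hearts labelled cKO and 3.09, 3.05 and 3.75 FPKM in WT hearts. The groups overlapped on PTU and on chow, and the difference of the genotype effect on T3 from that on PTU was 0.89 (adjusted p = 0.696) and from that on chow 1.02 (adjusted p = 0.742). Xrcc2 was also among the authors' 121.

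The other genes with the smallest p on that side did not form a single pathway. Mapkapk3, a kinase downstream of p38, had 21.2, 25.9 and 22.2 FPKM in hearts labelled cKO, against 19.2, 14.6 and 17.1 FPKM in WT hearts. Tmem52, a transmembrane protein, had 15.7, 21.5 and 17.2 FPKM in hearts labelled cKO, against 12.5, 10.3 and 10.8 FPKM in WT hearts. It stood at or below 0.377 FPKM in all PTU hearts and at 1.71 to 3.00 FPKM in hearts labelled cKO and 3.06 to 4.997 FPKM in WT hearts on chow. Nkx6-2, a homeobox factor, averaged 8.22 ± 0.471 FPKM in hearts labelled cKO and 5.49 ± 0.705 FPKM in WT hearts (SD, n = 3 each). Masp2, a protease of the lectin complement pathway, had 2.99, 1.55 and 2.30 FPKM in hearts labelled cKO, against 0.547, 0.01 and 1.01 FPKM in WT hearts. The log2 fold changes of the remaining 6, none of which overlapped, lay between 0.32 for Scube2, a secreted EGF-domain protein, and 0.53 for 4930507D05Rik. They included Pusl1, a pseudouridine synthase-like gene, Car8, a carbonic anhydrase-related protein, Tmem86b, a lysoplasmalogenase, and Relt, a TNF receptor family member. Among the authors' 19 genes on the higher side, Ush1c, a scaffold protein, had 22.3, 23.3 and 21.1 FPKM in hearts labelled cKO, against 20.6, 12.7 and 4.04 FPKM in WT hearts. Cyp26b1, which degrades retinoic acid, averaged 4.46 ± 1.83 FPKM in hearts labelled cKO and 1.89 ± 0.208 FPKM in WT hearts.

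On the lower side, 5 of the 12 genes with the smallest p lay outside antigen presentation. Nucb2, the precursor of nesfatin, had 5.17, 6.30 and 6.01 FPKM in hearts labelled cKO, against 7.76, 8.37 and 8.68 FPKM in WT hearts. Here no single heart set the difference, and the log2 fold change was -0.44 with all hearts and -0.51 without WT hearts 1 and 2. Nucb2 also lay lower on chow, at 4.72, 5.42 and 5.46 FPKM in hearts labelled cKO and 6.62, 6.40 and 8.76 FPKM in WT hearts, but on PTU the groups overlapped. Faim, an inhibitor of Fas-induced apoptosis, averaged 3.01 ± 0.563 FPKM in hearts labelled cKO and 4.56 ± 0.514 FPKM in WT hearts (SD, n = 3 each). Dpp4, a surface peptidase, averaged 0.632 ± 0.160 FPKM in hearts labelled cKO and 1.37 ± 0.255 FPKM in WT hearts. The transcripts E130218I03Rik and 5730408K05Rik had log2 fold changes of -0.53 and -0.87. Outside these 12, Phgdh, the first enzyme of serine synthesis, had 1.12, 1.29 and 1.08 FPKM in hearts labelled cKO, against 2.82, 2.78 and 2.017 FPKM in WT hearts. Npas2, a clock gene, averaged 0.293 ± 0.261 FPKM in hearts labelled cKO and 0.692 ± 0.0892 FPKM in WT hearts.

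**Figure D5:**
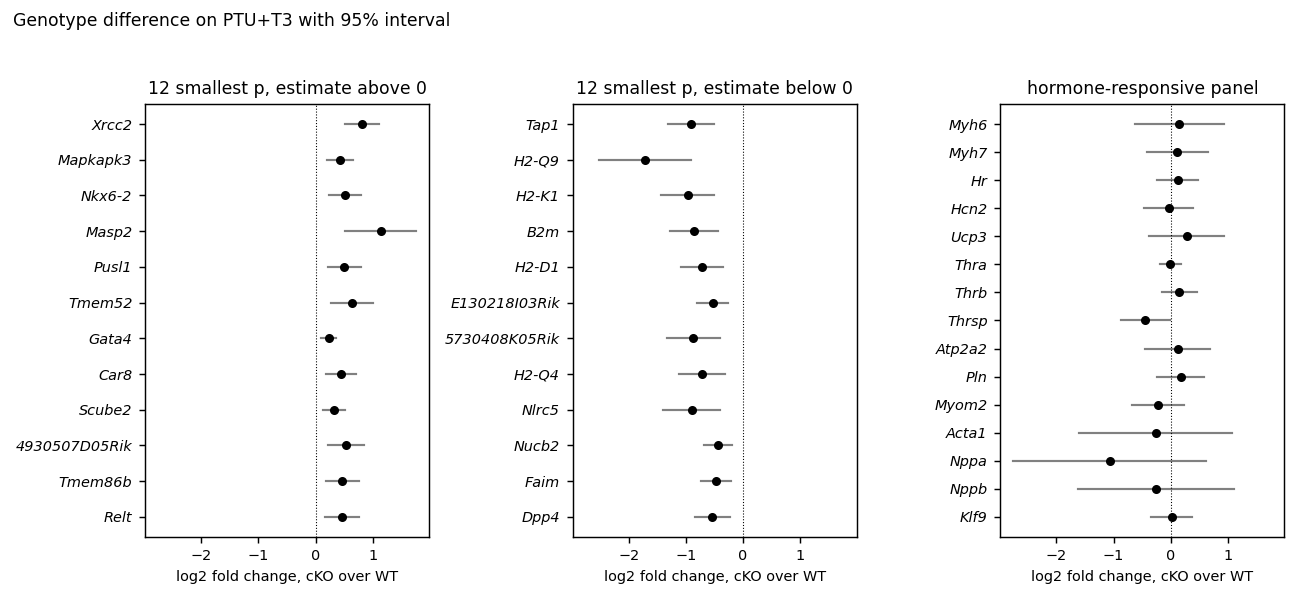
Points are log2 fold changes, cKO over WT on PTU+T3, on the log2(FPKM + 1) scale, and bars are 95% intervals, for the 12 genes of smallest p in each direction and the hormone-responsive panel. Intervals of the first 24 genes exclude 0 because they were selected by p, and none was called after adjustment, while the panel's estimates lie between -1.07 for Nppa and 0.28 for Ucp3.

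The energy genes leaned one way by small amounts. All 55 tested genes of oxidative phosphorylation had estimates above 0, but the median log2 fold change was 0.18 and 0 had an unadjusted p under 0.05. Without WT hearts 1 and 2 the median was -0.07 and 13 of the 55 lay above 0, and without WT heart 2 alone it was 0.06. Without WT heart 3 it was 0.31, with 8 genes at an unadjusted p under 0.05. These genes share a pattern across hearts, with 46 of the 55 highest in cKO heart 2, so their shared sign is not 55 separate observations. For Cyc1, cytochrome c1 of complex III, the log2 fold change was 0.22. Of the 45 fatty acid oxidation genes, 34 had estimates above 0, with a median of 0.16 and of 0.01 without WT heart 2. Among nuclear receptors and coactivators, 22 of 28 lay above 0, with a median of 0.10. The median was 0.05 without WT heart 2, with 20 above 0, and 0.05 without WT hearts 1 and 2, with 16 above 0. Esrra, an orphan receptor that drives mitochondrial genes, had 116, 114 and 110 FPKM in hearts labelled cKO, against 98.8, 80.6 and 105 FPKM in WT hearts. Nrf1, a factor for nuclear-encoded mitochondrial genes, averaged 5.94 ± 0.483 FPKM in hearts labelled cKO and 4.84 ± 0.368 FPKM in WT hearts (SD, n = 3 each). Jph2, which tethers the sarcoplasmic reticulum to the T-tubule membrane, averaged 231 ± 17.6 FPKM in hearts labelled cKO and 192 ± 19.1 FPKM in WT hearts.

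Markers of the atrium varied widely among hearts of one label. Myl7, the atrial light chain, had 180, 757 and 14.0 FPKM in hearts labelled cKO, against 487, 44.0 and 279 FPKM in WT hearts. The 15 tested atrial genes had a mean centred level of 0.90 in cKO heart 2 and of -1.03 in cKO heart 3, and Nppa is one of them. How much atrium each sample held was not tested. Among neutrophil transcripts, 3 had higher values in every heart labelled cKO than in any WT heart. S100a8, a calcium-binding protein of neutrophils, had 15.8, 11.2 and 16.9 FPKM in hearts labelled cKO, against 3.92, 4.81 and 1.62 FPKM in WT hearts. S100a9, its partner, had 16.2, 12.8 and 12.0 FPKM in hearts labelled cKO, against 8.75, 4.07 and 0.991 FPKM in WT hearts. Of the 10 granulocyte markers, 4 were tested and 3, the third being Retnlg, did not overlap on the higher side, where 4.81% of all genes did not. These 3 mark the same cell type, so they are not 3 separate observations. An unadjusted limma p under 0.05 was found for 0 of the 4. The fourth, Csf3r, overlapped, at 0.925 ± 0.440 FPKM in hearts labelled cKO and 1.09 ± 0.655 FPKM in WT hearts (SD, n = 3 each), a log2 fold change of -0.08 that turned to 0.51 without WT hearts 1 and 2. The estimates are imprecise, with a 95% interval for S100a8 of -0.64 to 4.39, and on PTU 1 WT heart reached 42.1 FPKM of S100a8 where the hearts labelled cKO had 2.05 to 4.16 FPKM.

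Whether the genotype difference depends on T3 was tested directly. For the genotype effect on PTU+T3 minus that on PTU, limma called 0 of 12587 genes (0%), with 821 at an unadjusted p under 0.05 and a smallest adjusted p of 0.590. For the effect on PTU+T3 minus that on chow it called 0 (0%), with 294 at an unadjusted p under 0.05. The genotype comparisons on PTU and on chow themselves gave 0 calls each (0% and 0%), with 491 and 394 genes at an unadjusted p under 0.05. In the contrast with PTU, 3 of the 5 genes with the smallest p were B2m, Tap1 and H2-K1. H2-K1 on PTU had 68.9, 83.2 and 80.3 FPKM in hearts labelled cKO, all above the 63.8, 57.4 and 49.5 FPKM of WT hearts. Over the 21 class I genes the median log2 fold change was 0.04 on chow, 0.22 on PTU and -0.63 on PTU+T3. On chow H2-K1 lay at 81.0 to 92.4 FPKM in hearts labelled cKO and at 80.3 to 95.9 FPKM in WT hearts, and the groups overlapped.

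The other genes of smallest p in the contrast with PTU were E130218I03Rik and Fam220a. E130218I03Rik had 0.647, 0.578 and 0.657 FPKM in hearts labelled cKO, against 1.36, 1.35 and 1.35 FPKM in WT hearts on PTU+T3. On PTU it had 0.876, 1.59 and 1.57 FPKM in hearts labelled cKO and 0.595, 0.754 and 0.670 FPKM in WT hearts. Fam220a differed by 0.60 between the treatments. In the contrast with chow the 5 genes were Xrcc2, Tmem52, 5730408K05Rik, Gm14295 and Ift81, a gene of transport within cilia. Ift81 had 9.75, 10.1 and 14.3 FPKM in hearts labelled cKO and 16.5, 11.8 and 13.6 FPKM in WT hearts on PTU+T3. On chow the groups of Ift81 stood apart the other way, at 29.6, 34.5 and 33.1 FPKM in hearts labelled cKO and 17.5, 20.2 and 18.3 FPKM in WT hearts. Of the 434 genes with an unadjusted p under 0.05 on PTU+T3, 32 (7.37%) had one on PTU too, 7 in the same and 25 in the opposite direction, and 28 (6.45%) had one on chow, 19 of them in the same direction. The 32 make up 6.52% of the 491 on PTU and the 28 make up 7.11% of the 394 on chow. Over all 12587 genes tested, 491 had such a p on PTU and 394 on chow. All comparisons come from 1 fit with 1 spread per gene, so a gene of little spread can reach such a p in several.

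Genes beside Med13 on chromosome 11 were looked at as a group, since a targeted locus can carry linked differences. Of 249 annotated genes within 5 Mb of Med13, 88 were tested, 0 were called and 2 had an unadjusted p under 0.05, with a median log2 fold change of 0.03. Over all genes 3.45% had such a p and the median was 0.02. These 2 were Myo19, a mitochondrial myosin, at 0.33, and Vmp1, an autophagy protein, at 0.32.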

How the data were processed

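RNA from whole hearts was sequenced in 18 libraries, and 6 libraries entered the comparison. Per the labels' protocols, RNA was extracted with Trizol and libraries were made with TruSeq V2, a kit that does not mark strand. The sources do not say how counting treated strand, so overlapping genes on opposite strands cannot be told apart. Bowtie2, Cufflinks and the build mm10 are named, without versions, per the submitters' processing notes. The authors deposited FPKM values for 24341 genes, and, for several pairs of groups, tables with group FPKM values, p-values and q-values per the file headers. The authors' log2 column was not used, since it mixes numbers with infinite and unreadable entries. The lowest value in the table is a floor of 0.01 FPKM. FPKM carry no read totals, so depth is known only in relative terms and no counting interval can be given.

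A gene was tested if 3 or more of the 18 libraries reached 1 FPKM, which 12587 genes did. A failed estimate marked 5 values of 2 genes, which were left out, and 27 symbols that a spreadsheet had turned into dates were never named. Values were analysed as log2(FPKM + 1), on which fold changes of low genes are understated. The 6 groups of all 18 libraries entered 1 limma fit (limma 3.58.1, R 4.3.3, trended prior, robust estimation, 12 residual degrees of freedom). Adjusted p-values are Benjamini-Hochberg over all genes tested, and a gene was called at 0.05. Errors are SD of FPKM or standard errors of log2 fold changes, and intervals are 95% limits from the same fit. The fit was tested on data simulated with independent noise and 1 spread per gene. Those data held no shift shared by many genes of 1 heart, so the test does not cover that case. Gene lists were described by counts and medians with no test.

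The members, lists and rules were chosen with earlier results of these data known. Genes named are the Mediator kinase module, a panel of hormone-responsive genes, the 12 genes of smallest p in each direction (no gene was called), up to 2 members per list by p, 5 genes per interaction, genes within 5 Mb of Med13, and 10 genes from the authors' table. Igtp, Irf7, Isg15, the class II genes, single matrix genes, Myl7, S100a8, Csf3r, Eno1b and the named genes of the authors' higher side were chosen after their values were seen. Positions and promoters are from RefSeq on GRCm38.p6, the build the authors call mm10. A few genes that these rules name are not reported here.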

Additional observations from a re-analysis of the deposited data

Results flagged for a closer look

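Genotype effects were set side by side between treatments, and 8 of the genes named here stood out because all 3 hearts labelled cKO lay on one side of WT on PTU+T3 and all 3 on the other side on the second treatment. Over all 12587 genes, 76 (0.604%) did so with PTU as the second treatment and 31 (0.246%) with chow. None of the 8 passed the test of the difference itself (limma, adjusted over all genes). In the contrast of PTU+T3 with PTU, the differences on the log2 scale were -1.41 for H2-K1, -1.30 for B2m, -1.23 for Tap1, -1.09 for H2-Q4 and -1.38 for Ucp2, each with an adjusted p of 0.696. E130218I03Rik had a difference of -1.003 with an adjusted p of 0.590. In the contrast with chow, the differences were 1.22 for Tmem52 and -1.51 for 5730408K05Rik, each with an adjusted p of 0.742. H2-Q4 is a near-identical copy of other H2 genes and its value is uncertain. The genes were selected for this opposite order, so the order is not separate evidence.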

How the results depend on the processing

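Of 16 alternatives, 15 left 0 genes called on PTU+T3. Without a filter on low values limma called 1 gene on PTU+T3, 4 on PTU, 2 on chow and 1 in the contrast of PTU+T3 with PTU. The gene on PTU+T3, 1700030M09Rik, named after its values were seen, had 0.0971, 0.121 and 0.138 FPKM in hearts labelled cKO and stood at the floor of 0.01 FPKM in all 3 WT hearts. None of the 7 genes exceeded 0.808 FPKM in any heart. No paired analysis was possible because the labels give the hearts of the 2 genotypes no shared replicate numbers. Of 84 single-gene results, 65 kept their sign throughout. Some of those that turned lay near 0 with all hearts, such as Eno1b at -0.11, but others did not. With all hearts, log2 fold changes were -1.25 for Postn, -1.20 for Tnc, -1.12 for Cthrc1, -0.88 for Sprr1a and -0.75 for Col1a1. Each of these turned without WT heart 2, and Ptprn2, at -0.86, turned without WT heart 3. The results turned as follows, and the cause was not tested. Scaling by median ratios gave -0.0049 for Cdk19. Sample weights gave -0.0064 for Cdk19 and -0.015 for Klf9. Quantile normalization gave -0.0043 for Myh6, -0.044 for Atp2a2 and -0.036 for Klf9. Leaving out WT hearts 1 and 2 together, chosen after seeing the data, gave -0.10 for Myh7, -0.15 for Ucp3, -0.044 for Atp2a2, -0.065 for Pln, -0.082 for Klf9, 0.39 for Nppb, 0.039 for Tnc, 0.46 for Cthrc1, 1.05 for Sprr1a, 0.51 for Csf3r and 0.43 for Eno1b. Leaving out each heart in turn gave ranges of -0.020 to 0.22 for Atp2a2, -0.038 to 0.074 for Cdk19, -1.32 to 0.069 for Col1a1, -0.38 to 0.080 for Csf3r, -1.91 to 0.41 for Cthrc1, -0.38 to 0.19 for Eno1b, -0.28 to 0.12 for Hcn2, -0.10 to 0.083 for Klf9, -1.81 to 1.02 for Myl7, -0.58 to 0.15 for Nppb, -2.12 to 0.13 for Postn, -1.32 to 0.051 for Ptprn2, -1.84 to 0.97 for Sprr1a, -0.054 to 0.040 for Thra, -1.82 to 0.0094 for Tnc and -0.084 to 0.49 for Ucp3. The genes at an unadjusted p under 0.05, 225 higher and 209 lower with all hearts, numbered 613 and 292 without WT heart 3 and 131 and 181 without WT heart 2. Depth limits low genes most, and with 3 hearts a label only differences well above the spread can pass.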

Other observations

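Several transcripts varied widely between hearts of one group, and they are given as values only. They were picked out after their values were seen. Stbd1, a glycogen-binding protein, had 10.5, 5.27 and 0.956 FPKM in hearts labelled cKO and 0.537, 25.7 and 11.5 FPKM in WT hearts on PTU+T3. On chow it had 0.623, 0.715 and 0.390 FPKM in hearts labelled cKO and 14.8, 10.8 and 0.908 FPKM in WT hearts. Rpl29, a ribosomal protein gene, had 94.2, 347 and 325 FPKM in hearts labelled cKO and 273, 83.01 and 106 FPKM in WT hearts on PTU+T3, so that each label held hearts at both levels. Hbb-bs, an adult beta-globin gene, had 12.02 FPKM in cKO heart 2 and stood at the floor of 0.01 FPKM in the other 5 hearts on PTU+T3. Globin and ribosomal genes have near-identical copies, and their values are uncertain for that reason.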
